A study of Homo sapiens with 6 samples.

Results

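In GM12878, a human lymphoblastoid line made from B cells, 1136 of 56447 accessible regions lay at the start of a long non-coding RNA (lncRNA) gene and away from every protein-coding start. These regions were found by position alone. Peaks of 6 bulk ATAC-seq libraries were merged wherever they overlapped or adjoined, and a region was kept if it overlapped 500 bp on either side of the start of an autosomal lncRNA gene record of GENCODE version 44 on hg19 and lay more than 5 kb from all 78577 starts of protein-coding transcripts. In ATAC-seq, the transposase Tn5 cuts and tags DNA that is open, and reads therefore pile up at accessible sites. All 6 libraries came from GM12878 cells fixed with 1% formaldehyde, and all were reverse crosslinked overnight at 65 °C, the step that frees the transposed DNA from fixed protein. They differed in how this was done. The old buffer, which contains SDS, was followed by DNA purification. The new buffer without SDS was followed either by purification or by PCR directly in the mixture, which is the bulk form of Pi-ATAC, and each of these 3 protocols has 2 replicate libraries. All groups are of 1 cell line, and no label says that replicates came from separate cultures, so the p-values below measure only the spread between these libraries, which may be technical.

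Long non-coding RNAs are transcripts without a long translated frame. Many are transcribed by RNA polymerase II from promoters of their own, some carry small nucleolar RNAs (snoRNAs) or microRNAs in their introns or exons, and others act as RNA in the nucleus or are made at enhancers. Because numerous lncRNA genes share a promoter with a coding gene on the opposite strand, starts far from coding genes are the ones where an accessible region can be read as belonging to the lncRNA start.

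Sequences of 4 of these lncRNA promoters are given first, since the results below return to their CpG content and to the libraries that called them. Each is 300 bp of the hg19 (GRCh37) reference on the plus strand, centred on the strongest summit of the region, with CpG dinucleotides in capitals. DANCR (chr4:53578414-53578713) is the strongest snoRNA host, MIR17HG (chr13:91999682-91999981) has the widest region of all 1136, MIR155HG (chr21:26934353-26934652) carries a microRNA of activated B cells, and LINC02963 (chr12:34372492-34372791) was called with the old buffer only.
DANCR: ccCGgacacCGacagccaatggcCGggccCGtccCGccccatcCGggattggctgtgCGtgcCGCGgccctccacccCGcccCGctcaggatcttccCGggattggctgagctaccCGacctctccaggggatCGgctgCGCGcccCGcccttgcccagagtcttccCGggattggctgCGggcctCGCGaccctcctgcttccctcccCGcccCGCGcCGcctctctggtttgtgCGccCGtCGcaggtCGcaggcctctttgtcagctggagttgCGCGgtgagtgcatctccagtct
MIR17HG: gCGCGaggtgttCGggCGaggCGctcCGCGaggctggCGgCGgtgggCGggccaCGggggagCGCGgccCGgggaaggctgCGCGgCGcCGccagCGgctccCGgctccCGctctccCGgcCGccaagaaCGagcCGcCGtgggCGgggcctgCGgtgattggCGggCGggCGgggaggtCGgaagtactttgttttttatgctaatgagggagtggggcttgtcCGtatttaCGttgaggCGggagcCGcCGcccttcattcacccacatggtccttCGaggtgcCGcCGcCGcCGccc
MIR155HG: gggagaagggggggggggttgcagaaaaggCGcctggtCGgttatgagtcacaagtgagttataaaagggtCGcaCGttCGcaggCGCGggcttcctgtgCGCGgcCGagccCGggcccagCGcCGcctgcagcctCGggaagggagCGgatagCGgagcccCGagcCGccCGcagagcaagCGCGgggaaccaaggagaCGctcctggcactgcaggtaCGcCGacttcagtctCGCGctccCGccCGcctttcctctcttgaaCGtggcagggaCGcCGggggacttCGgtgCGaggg
LINC02963: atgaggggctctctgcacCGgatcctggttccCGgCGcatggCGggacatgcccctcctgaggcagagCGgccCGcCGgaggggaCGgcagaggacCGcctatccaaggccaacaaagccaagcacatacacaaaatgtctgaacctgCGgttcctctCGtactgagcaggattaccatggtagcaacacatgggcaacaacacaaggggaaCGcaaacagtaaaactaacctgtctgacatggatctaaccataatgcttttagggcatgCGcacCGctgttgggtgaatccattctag
These windows held 31, 42, 33 and 14 CpG, in the order printed. MIR155HG held a TATA box (TATAAA), a GC box (GGGCGG) and an AP-1 site (TGACTCA) on one strand or the other, DANCR and MIR17HG held a CCAAT box and a GC box, and LINC02963 held none of the 8 motifs searched.

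The peak lists give no read totals. MACS2, the peak caller, writes for each peak a Poisson p and a false discovery rate q, both as −log10, and how many fold the summit exceeds the local background. The reads piled up at the summit were solved from the fold enrichment and p, with a largest error of 0.000275 in −log10 p. A library listed 30136 to 38023 peaks, with a median of 20 to 22 reads at the summit, and its lowest local background, which scales with depth, was 1.51 to 1.86 reads. The shallowest by this measure, replicate 2 of the new buffer with purification, also had the fewest peaks. The label of the line was checked by peaks within 500 bp of coding starts of B-cell genes. MS4A1, EBF1 and IRF4 had one in all 6 libraries, CIITA in 5, CD79A in 4, and CD79B and PAX5 in 1, while CD22 and BLK had none. Of 12 genes of other blood cells, CD8A and GATA3 had a peak in all 6 libraries, CD14 in 4, and the other 9 in none.

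Most annotated lncRNA starts had no accessible region. Of 18229 autosomal lncRNA gene starts, 13040 lay more than 5 kb from coding starts, and 1229 of these (9.42%, exact 95% binomial interval 8.93% to 9.94%, counting error only) had a region within 500 bp. In single libraries this share was between 6.57% and 7.56%. Where peaks were present, they gathered at the start. Peaks covered 4.73% ± 0.290 (SD, n = 6 libraries) of the 13040 starts at the start itself, and coverage fell on both sides, to 0.468% ± 0.0612 at 2000 bp upstream and 0.525% ± 0.0575 at 2000 bp downstream. The highest mean coverage, 4.77%, was 50 bp upstream. The start was thus covered 9.60 ± 0.765 times as often as the flanks (SD, n = 6), against 37.1 ± 1.44 times at 75499 protein-coding transcript starts, of which 37.8% ± 1.56 were covered. These are unlike units. Each lncRNA gene has 1 start here, filtered by distance, while coding genes have every distinct transcript start, unfiltered, so 1 promoter can count several times.

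**Figure D1:**
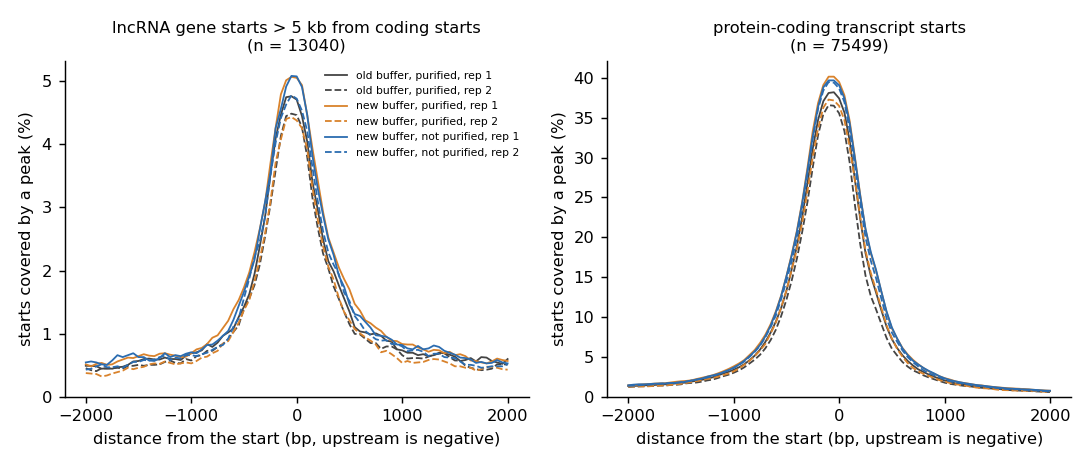
Percent of starts covered by a peak against the distance from the start in bp, upstream negative, with 1 line per library (solid for replicate 1, dashed for replicate 2); the vertical scales of the panels differ. At 13040 lncRNA gene starts more than 5 kb from coding starts (left) coverage rose from about 0.5% at the flanks to 4.38% to 5.08% at the start, and at 75499 protein-coding transcript starts (right) to between 35.6% and 39.5%.

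The 1136 promoters carried 1266 lncRNA gene starts of 1218 genes, of which 467 have a gene symbol and 751 an identifier only. The summit of the strongest peak lay at a median of −43.5 bp from the start (upstream is negative), within 100 bp of it in 453 promoters (39.9%), and more than 500 bp away in 171 (15.1%). By the nearest lncRNA start, 901 promoters (79.3%) lay between protein-coding genes. Another 170 (15.0%) lay inside a coding gene and antisense to it, and 65 (5.72%) inside one on the same strand. Genes of other types were not considered here. The antisense ones were called in all 6 libraries in 32.4% of cases, and those between coding genes in 51.7%. At 108 promoters lncRNA genes started on both strands. These were wider than the rest, with a median of 784.5 bp against 530.5 bp, and 70.4% of them were called in all 6 libraries against 46.2% of the 1028 with starts on 1 strand. A wide region meets more starts, so width was partly used in forming this group, and regions called in more libraries were also wider. Whether the share called differs at equal width was not tested. Of the 182 promoters of single-exon lncRNAs 51.6% were called in all 6 libraries, and of the 954 promoters of spliced ones 47.9%. On chromosomes 15 and 22, 3.83% and 3.71% of all regions were lncRNA promoters (51 of 1330 and 15 of 404), and on chromosome 20 it was 1.48% (16 of 1078). On chromosome 4 it was 1.51%, and in the whole series 1136 of 56447 regions were lncRNA promoters. The number of lncRNA starts on each chromosome was not taken into account.

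In strength the lncRNA promoters stood between other distal regions and coding promoters. The other distal regions are the 37413 autosomal regions that also lie more than 5 kb from coding starts but outside the lncRNA windows, and the coding promoter regions are the 11639 within 500 bp of a coding start. Of the lncRNA promoters 551 (48.5%, exact 95% binomial interval 45.6% to 51.5%) were called in all 6 libraries, compared with 26.5% of the other distal regions, 67.1% of the coding promoters and 35.5% of all regions. Only 174 (15.3%) were called in a single library, against 32.3% of the other distal regions and 10.5% of the coding promoters. The remaining 110, 91, 98 and 112 lncRNA promoters were called in 2, 3, 4 and 5 libraries. Those called once had a median width of 239 bp and a median highest −log10 q of 5.13, and those called in all 6 of 781 bp and 21.7.

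**Figure D2:**
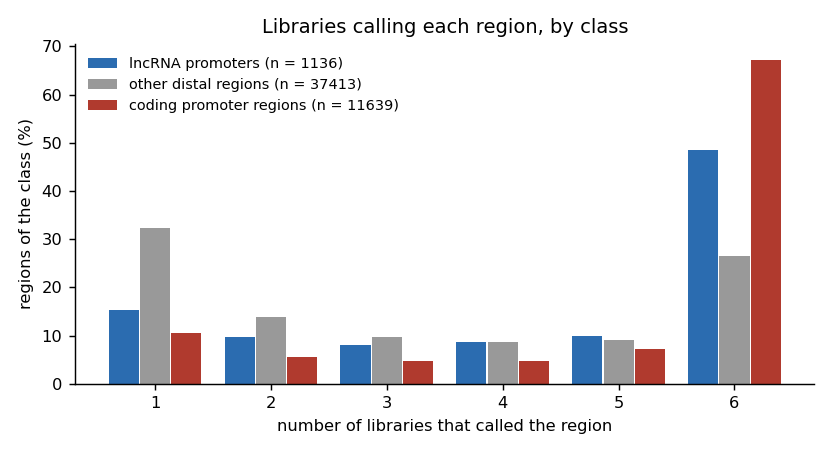
Percent of the regions of each class, on an axis from 0, against the number of the 6 libraries that called the region. The lncRNA promoters (n = 1136) lie between the other distal regions (n = 37413) and the coding promoters (n = 11639) at both ends: 15.3%, 32.3% and 10.5% were called in 1 library, and 48.5%, 26.5% and 67.1% in all 6.

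The same order held within each library. The median log2 fold enrichment of peaks was 2.63 in lncRNA promoters and 2.46 in other distal regions (means of 6 libraries), a difference of 0.16. Their median width was 458 bp against 357 bp, 101 bp more, and 84.1% of their peaks overlapped a peak of the replicate library against 71.5%, 12.5 percentage points more. Each of these differences was in the same direction in 6 of 6 libraries (exact two-sided sign-flip permutation test over libraries, p = 0.03125, adjusted p = 0.03125 over 6 tests, the smallest that 6 libraries allow). Against the coding promoters, the median log2 fold enrichment was lower by 0.12 (2.75 in coding promoters), the width by 115 bp (573 bp) and the share found in the replicate by 6.25 points (90.3%), again in 6 of 6 libraries (same exact test, p = 0.03125 and adjusted p = 0.03125 each). A wide region meets a 500 bp window more easily, so width was partly used by the rule. When a summit had to lie inside the window, 1023 promoters were left, and their peaks were still wider than those of other distal regions by 97.0 bp. The share found in the replicate compares 3 pairs of libraries in both directions, so its 6 values are not independent.

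The gap in reproducibility was seen among weak peaks and closed among strong ones. Peaks of each library were ranked by −log10 q and divided into 5 equal parts. In the weakest part 52.3% of peaks in lncRNA promoters, 42.1% of those in other distal regions and 56.3% of those in coding promoters were found in the replicate. In the middle part these values were 87.9%, 80.1% and 90.2%. In the strongest part every peak in an lncRNA promoter was found in the replicate in each of the 6 libraries (191 to 231 peaks per library), and 99.9% of distal and 99.96% of coding ones. The lncRNA promoters had 24.7% of their peaks in the strongest part and 15.7% in the weakest, the other distal regions 12.1% and 24.3%.

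The values next to the limits of the rule were as follows. Regions whose distance to the lncRNA start was 300 to 500 bp, just inside the window, were called in all 6 libraries in 31.8% of 129 cases, and those at 500 to 700 bp in 25.9% of 116. Promoters 5 to 6 kb from a coding start were called in all 6 in 48.4% of 31 cases, and regions 4 to 5 kb away in 38.5% of 39.

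Among snoRNA hosts, spliced transcripts that are processed for the snoRNAs in their introns, 20 of 32 listed genes start more than 5 kb from coding starts. Of these, 14 (70.0%) had an lncRNA promoter region, beside the 9.42% of all such lncRNA starts with a region, and 10 had one called in all 6 libraries, with 11 to 14 called per library. At the DANCR promoter, which it shares with LINC01618, the summit held 90 and 95 reads in the old-buffer libraries, 112 and 95 in the purified new-buffer ones, and 99 and 106 in the unpurified new-buffer ones. SNHG8 had 104 and 91, 121 and 99, and 111 and 101 reads in the same order, and SNHG5 had 101 and 74, 103 and 93, and 106 and 103. Summit reads are not scaled for depth, and the unpurified libraries were the deepest by their lowest local background (1.76 and 1.86 reads), so protocols are compared here by fold enrichment, which is taken over the local background. In fold enrichment the old-buffer and unpurified libraries overlapped at all 3, for example at DANCR with 9.38 and 10.3 against 8.94 and 9.62. EPB41L4A-AS1, a snoRNA host that runs antisense to EPB41L4A, had 27 and 31 reads in the old-buffer libraries, 39 and 40 in the purified new-buffer ones, and 50 and 44 in the unpurified ones. Its fold enrichments were 6.73 and 8.25, 9.48 and 9.62, and 10.5 and 8.89, so that both old-buffer libraries lay below the other 4, and the new-buffer protocols overlapped. SNHG26, SNHG29, SNHG15 and SNHG25 had medians of 39.0, 36.5, 32.0 and 33.0 reads over the 6 libraries. The fold enrichments of SNHG26 were 6.56 and 6.27, 6.72 and 6.17, and 8.66 and 7.98, so that both unpurified libraries lay above the purified ones. The weakest listed hosts, SNHG17, SNHG28 and SNHG7, were called in 5 libraries and SNHG16 in 3.

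Of 78 listed host genes of microRNAs, 64 start away from coding starts. Among those, 14 (21.9%) had an lncRNA promoter, beside 9.42% of all such lncRNA starts with a region, and 13 had one called in all 6 libraries. MIR17HG, the primary transcript of the microRNA cluster that begins with miR-17, was accessible over 2343 bp, and its summit held 101 and 95 reads in the old-buffer libraries, 109 and 101 in the purified new-buffer ones, and 107 and 96 in the unpurified ones. MIRLET7A1HG and MIRLET7IHG, which carry let-7 microRNAs, had medians of 83.0 and 85.5 reads. MIR181A1HG, host of miR-181 members that act in lymphocyte development, had 40 and 39, 33 and 24, and 43 and 39 reads. MIR4432HG ranged from 27 to 45 reads and MIR9-1HG from 19 to 33, at a summit −606 bp from the start and so outside the 500 bp window. The other listed hosts called in all 6 libraries, besides those of the immune list, were MIR181A2HG, MIR1915HG, MIR193BHG, MIR210HG and MIR762HG.

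Of 20 immune and B-cell lncRNAs, 17 start away from coding starts. Among those, 12 (70.6%) had an lncRNA promoter, beside 9.42% of all such lncRNA starts with a region, and 7 had one called in all 6 libraries. MIR155HG, the precursor of miR-155, which is induced when B cells are activated, had 52 and 31 reads at the summit in the old-buffer libraries, 50 and 39 in the purified new-buffer ones, and 61 and 54 in the unpurified ones. Its fold enrichments, 4.42 and 3.22, 4.05 and 3.75, and 4.74 and 4.41, overlapped between protocols. MIR3142HG, which carries miR-146a, a microRNA that dampens NF-κB signalling, had 48 and 38, 59 and 45, and 55 and 50 reads. Its summit lay 807 bp downstream of the start, outside the 500 bp window. IFNG-AS1, transcribed next to the interferon gamma gene, varied most within a group, with 44 and 16, 31 and 18, and 27 and 24 reads. Its summit, at −556 bp from the start, was also outside the window. LINC01857 had 18 and 14, 30 and 21, and 23 and 20 reads, and LINC00299 ranged from 32 to 51. TH2LCRR, at the control region of the Th2 cytokine genes, was called in the 4 purified libraries with 26, 22, 29 and 23 reads and in neither unpurified one. LINC01215 was called in 5 libraries, LINC00926 in 4, LINC02397 in 3 and LINC00494 in 1, and LUCAT1 completed the 7 that all libraries called.

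Of 12 broadly expressed lncRNAs, 8 start away from coding starts, 6 had an lncRNA promoter and 4 had one called in all 6 libraries. These were MALAT1, a nuclear speckle RNA, DLEU1, PVT1, which lies beside MYC, and KCNQ1OT1, the imprinted antisense transcript of KCNQ1. The strongest PVT1 summit lay 577 bp downstream of the start, outside the 500 bp window. MALAT1 had 36 and 28, 33 and 37, and 45 and 44 reads, and fold enrichments of 6.80 and 5.73, 5.56 and 8.23, and 7.28 and 6.58, which overlapped. KCNQ1OT1 was weaker, with 18 and 23, 16 and 25, and 23 and 26 reads. NEAT1, the scaffold of paraspeckles, was called in 4 libraries with 29, 26, 32 and 29 reads and missed in replicate 2 of both purified protocols. NORAD, which binds Pumilio proteins, had 11 to 17 reads in the 5 libraries that called it. Among 19 lncRNAs of other lineages, such as HOTAIR, H19 and MEG3, 11 start away from coding starts. Of these, 1 (9.09%) had an lncRNA promoter, close to the 9.42% of all such lncRNA starts with a region. It was PCGEM1 of prostate, called in a single old-buffer library with 17 reads.

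**Figure D3:**
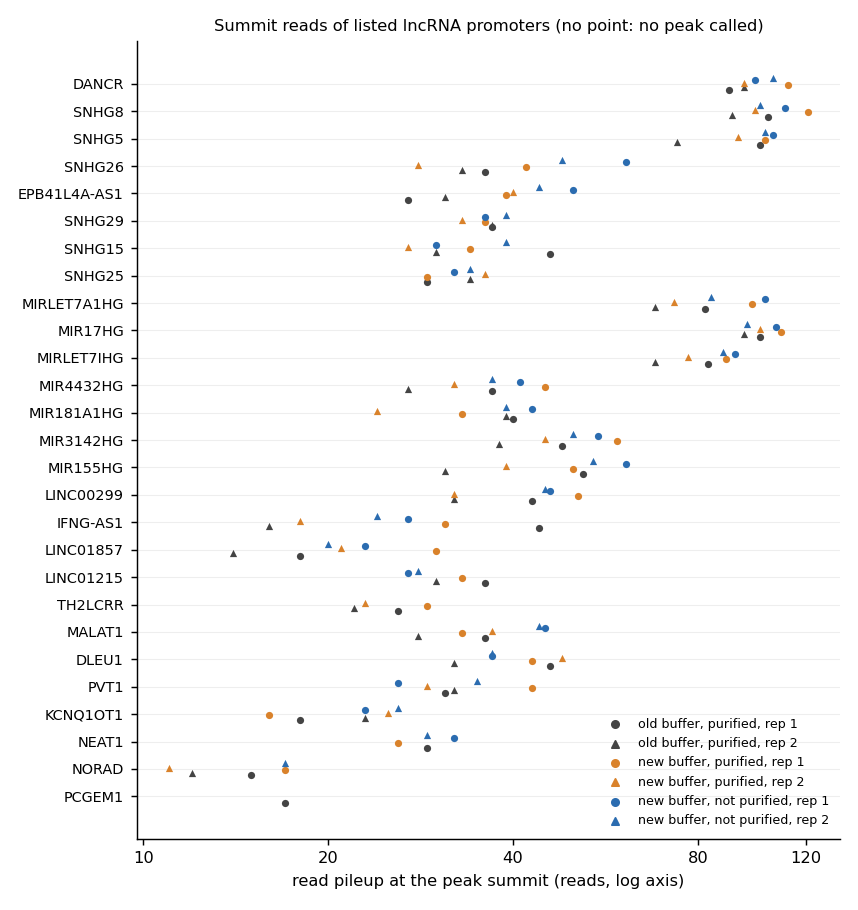
Reads at the peak summit, on a log axis, for 27 listed lncRNA promoters in 6 libraries; colours mark the protocol, circles replicate 1 and triangles replicate 2, and a missing point is a library without a peak. DANCR, SNHG8, SNHG5 and MIR17HG lie between 74 and 121 reads in all libraries, and NORAD and PCGEM1 below 20.

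The strongest lncRNA promoters were largely of genes outside these lists. By mean −log10 q, the first 10 called in all 6 libraries were LINC00273, ENSG00000229422, LINC01003, LINC02018 with FAM86DP, ROCK1P1, ENSG00000291177 with LINC00663, DANCR with LINC01618, ENSG00000291203, ENSG00000243176 and FAM86B3P. LINC00273 stood first with 180 and 160, 177 and 175, and 184 and 161 reads at its summit, and the other 9 had medians of 83.0 to 132 reads. The summit lay outside the 500 bp window at LINC00273 (−752 bp from the start), ROCK1P1 (−792 bp), ENSG00000243176 (889 bp) and FAM86B3P (−542 bp). Their summit reads are thus not those of the start itself. For 4 of the 10, namely LINC00273, LINC02018, ROCK1P1 and FAM86B3P, the 300 bp at the summit had a near-identical copy elsewhere in the reference, at a best identity of 95.8%, 96.7%, 99.7% and 97.0%. Reads from such copies could be assigned to either place, so these levels are uncertain. Of all lncRNA promoters 102 (8.98%) had such a copy, and of those called in all 6 libraries 59 (10.7%). Without the 102, the peaks of lncRNA promoters exceeded those of other distal regions by 0.14 in median log2 fold enrichment and by 92.5 bp in width.

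The lncRNA promoters were of 2 kinds in base composition. In the 300 bp at the summit, 470 of 1136 (41.4%) were CpG-rich, taken as a CpG observed over expected ratio of at least 0.6 and a GC content of at least 50%. This share was 2.93% in other distal regions, 84.2% in coding promoters and 22.1% in all autosomal regions. The CpG ratio of the lncRNA promoters was most often between 0.1 and 0.2 and, in a second group of values, between 0.8 and 0.9, and their median GC content was 56.0%, against 43.3% in other distal regions and 67.7% in coding promoters. The CpG-rich ones were called in all 6 libraries in 63.0% of cases, had a median width of 669 bp, started genes on both strands in 17.4% and had the summit within 100 bp of the start in 53.4%. For the 666 CpG-poor ones these values were 38.3%, 478.5 bp, 3.90% and 30.3%, and 20.6% of them were antisense to a coding gene against 7.02% of the CpG-rich. In every library a larger share of the CpG-rich was called, 77.4% to 84.5% against 58.0% to 73.1%. Within the CpG-rich kind, 63.0% of lncRNA promoters, 39.6% of other distal regions and 72.2% of coding promoters were called in all 6 libraries, and within the CpG-poor kind 38.3%, 26.1% and 40.3%. These composition values are descriptions without a test.

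**Figure D4:**
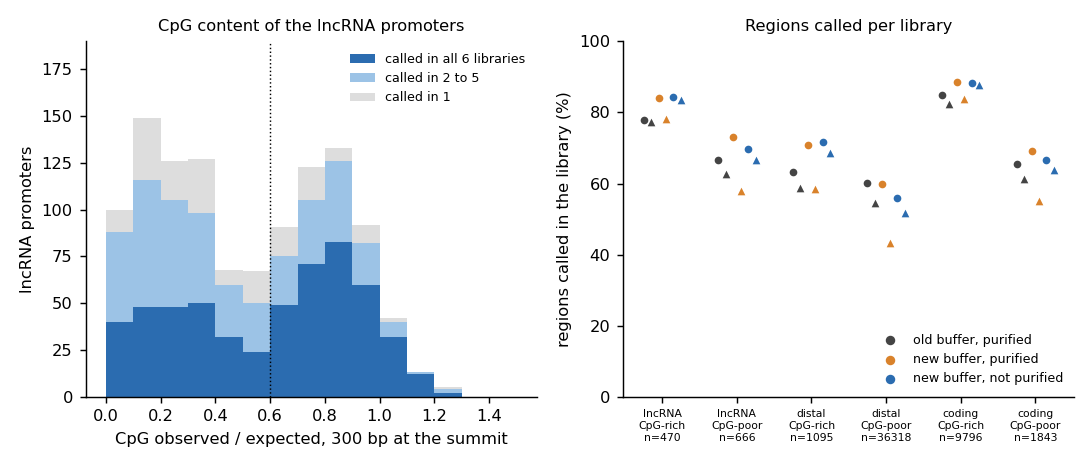
Left, number of lncRNA promoters by CpG observed over expected ratio in 300 bp at the summit, shaded by how many libraries called them, with the limit of 0.6 dotted; right, percent of the CpG-rich and CpG-poor regions of each class called in each library, circles for replicate 1 and triangles for replicate 2. In all 6 libraries the CpG-rich lncRNA promoters (77.4% to 84.5%) lie above the CpG-poor ones (58.0% to 73.1%).

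The listed genes fell into both kinds. All 8 of the snoRNA hosts named with reads above, DANCR included, were CpG-rich, as were MIR17HG, MIR155HG, MALAT1, NEAT1, NORAD and KCNQ1OT1. MIR181A1HG, MIR4432HG, MIR3142HG, IFNG-AS1, LINC00299, LINC01857, LINC01215, TH2LCRR, PVT1 and PCGEM1 were CpG-poor. At MIR17HG, as printed, 42 CpG gave a ratio of 1.07, and at MIR181A1HG 1 CpG gave 0.0732.

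Most of the 8 short motifs searched differed in share between the 2 kinds. The letters GGGCGG, the core of the GC box bound by SP factors, were found on either strand in 39.5% of lncRNA promoters, 74.5% of the CpG-rich and 14.9% of the CpG-poor, and in 22.6% of all regions. CCGGAAG, an ETS core, was in 10.9% (19.8% and 4.65%) and in 5.50% of all regions. TGACTCA, the AP-1 site, was in 12.0% of lncRNA promoters, 3.83% of the CpG-rich and 17.7% of the CpG-poor, and in 13.4% of all regions. TGTGGTT, a RUNX core, was in 8.98% (2.13% and 13.8%) and in 13.3% of all regions, and TATAAA in 9.42% (1.49% and 15.0%) and in 14.7%. CCAAT was in 34.4% of lncRNA promoters, at 34.3% of the CpG-rich and 34.5% of the CpG-poor, and in 34.2% of all regions. GGACTTTCC, an NF-κB site, was in 1.41% (0.213% and 2.25%) and in 1.30% of all regions, and GAGGAAG, a PU.1-type core, in 13.6% (11.9% and 14.7%) and in 12.2%. All shares are for 300 bp windows on both strands. GGGCGG and CCGGAAG contain a CpG, so their shares are tied to the CpG content that defines the 2 kinds, and a match is a run of letters and not a bound site.

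The comparison of protocols asks whether lncRNA promoters were recovered alike with the 3 ways of reverse crosslinking. The labels give the same lysis, EDTA and supernatant steps for all 6 libraries, while the methods describe them for the Pi-ATAC workflow, so other differences between the protocols than SDS and purification cannot be told apart from these. The old-buffer libraries called 809 and 782 lncRNA promoters, the purified new-buffer ones 882 and 754, and the unpurified ones 862 and 836, replicate 1 first. As a share of each library's peaks, lncRNA promoters made up 2.24% and 2.35%, 2.41% and 2.62%, and 2.45% and 2.53%, so that all 4 libraries made without SDS lay above both old-buffer libraries. The means were 2.30% ± 0.0837, 2.52% ± 0.151 and 2.49% ± 0.0604 (SD, n = 2 each). The new buffer exceeded the old one by 0.223 percentage points with purification and by 0.197 without (exact two-sided permutation test, p = 0.333 each, the smallest that 2 against 2 allow, and adjusted p = 0.667 over 6 tests), and the 2 new-buffer protocols differed by −0.026 points (same exact test, p = 1). Of the 1136 promoters, 70.0% ± 1.68 were called in the old-buffer libraries, 72.0% ± 7.97 in the purified new-buffer ones and 74.7% ± 1.62 in the unpurified ones (SD, n = 2 each). The differences were 1.98, 4.71 and 2.73 points, the last between the new-buffer protocols (exact permutation test, p = 1, 0.333 and 1, adjusted p = 1, 0.667 and 1), and the spread between the purified new-buffer replicates was larger than each of them. With the 30136 strongest peaks of every library, and the promoters chosen anew from these peaks, the differences were 4.68, 4.72 and 0.049 points (same exact test, p = 0.333, 0.333 and 1). With 2 libraries a group, this exact test cannot pass a threshold of 0.05. Of the 9796 CpG-rich coding promoters, 84.9% and 82.3% were called in the old-buffer libraries. In the purified new-buffer ones 88.7% and 83.7% were called, and in the unpurified ones 88.2% and 87.8%. For the 1843 CpG-poor coding promoters these values were 65.4% and 61.2%, 69.0% and 55.0%, and 66.5% and 63.9%. Whether the protocols differ at lncRNA promoters in particular was not tested.

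Few lncRNA promoters were particular to a protocol. Of those called with either of the 2 protocols compared, 39 (3.65%) were in both unpurified libraries and in neither old-buffer one, beside 2.40% of all regions, and 13 (1.22%) the other way round, beside 2.82%. For the new buffer with purification, 25 (2.35%) were gained over the old buffer, beside 1.83%, and 23 (2.16%) were lost, beside 3.20%. Between the new-buffer protocols, 31 (2.87%) were in the unpurified libraries alone, beside 2.70%, and 19 (1.76%) in the purified ones alone, beside 1.76%. The counts for the old buffer share its 2 libraries. These counts were not tested. The old-buffer libraries had 37654 and 34826 peaks, the purified new-buffer ones 38023 and 30136, and the unpurified ones 36252 and 34438. Whether peak number shaped the counts was not tested.

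**Figure D5:**
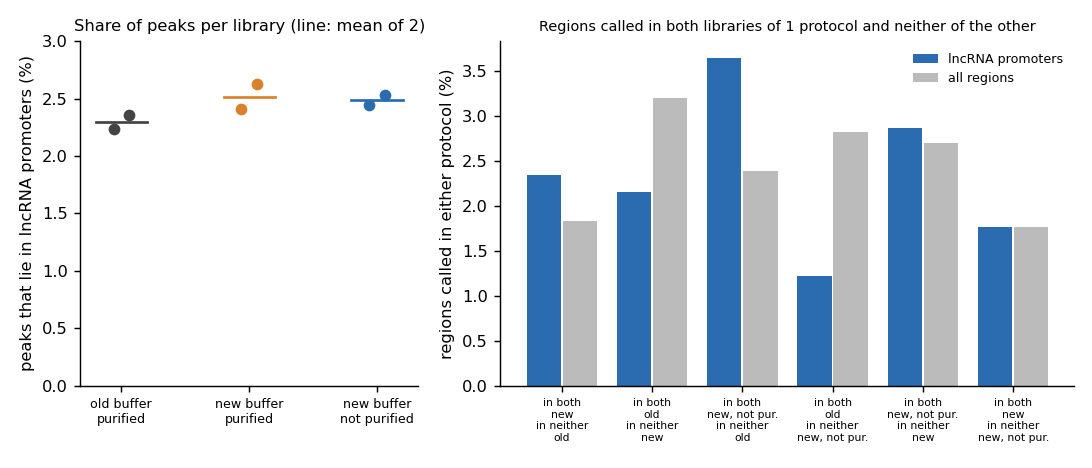
Left, percent of each library's peaks that lie in lncRNA promoters, with 1 point per library and a line at the mean of 2; the 4 libraries made without SDS (2.41% to 2.62%) lie above both old-buffer libraries (2.24% and 2.35%). Right, percent of regions with a peak in each library of 1 protocol and no peak in the other protocol of the pair, for lncRNA promoters and for all regions, out of those called with either protocol.

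By rule, the protocol-specific promoter whose weaker library had the highest −log10 q was named for each contrast. LINC02963, printed above, was called with 24 and 21 reads in the old-buffer libraries and in none of the other 4. Both values equalled the median summit of lncRNA promoters in the same library. ENSG00000261696 had 20 and 24 reads in the purified new-buffer libraries and 17 in 1 unpurified library, and LINC02406 had 18 reads in both unpurified libraries and in 1 purified one, with no old-buffer peak at either. ENSG00000291156 had 22 reads in both unpurified libraries and 15 in 1 old-buffer library. SNX10-AS1, antisense to the sorting nexin gene SNX10 in name, had 17 and 14 reads in the purified new-buffer libraries alone, at a summit −557 bp from the start. A list holds no value for a library without a peak, so signal under the caller's threshold cannot be told apart from no signal.

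Where all 6 libraries called a region, no difference in fold enrichment between protocols passed the test. The log2 fold enrichment, centred on each library's median, was fitted with limma over 20064 regions, 551 of them lncRNA promoters. In simulated data with the average spread of these libraries, limma called 8 of 100 regions changed by 0.5 on the log2 scale. Of those changed by 1 it called 89 of 100, so changes near 0.5 would mostly be missed. Every simulated region had the same spread, and all changed regions were planted together. The recovery where spread differs between regions was not simulated, so 89 of 100 need not hold for these data. At a Benjamini-Hochberg adjusted p of 0.05 limma called 0 lncRNA promoters in each of the 3 contrasts, beside 0% of all regions tested. At an unadjusted p under 0.05 it marked 36 lncRNA promoters (6.53%, 21 higher and 15 lower) for the purified new buffer against the old one, beside 6.86% of all regions, 31 (5.63%, 14 and 17) for the unpurified against the old, beside 6.52%, and 21 (3.81%, 8 and 13) for the unpurified against the purified new buffer, beside 4.79%. The median change of the lncRNA promoters was 0.03, 0.03 and −0.02 on the log2 scale in these contrasts, and 0.00 for all regions in each. The smallest p among lncRNA promoters belonged to ENSG00000257176, an antisense gene on chromosome 12. It had fold enrichments of 8.80 and 9.57 in the old-buffer libraries, 4.49 and 6.04 in the purified new-buffer ones and 6.45 and 5.62 in the unpurified ones, a log2 change of −0.81 (SE 0.20, limma adjusted p = 0.615) for the purified new buffer against the old. SUGT1P3 had 5.85 and 5.11, 8.23 and 6.82, and 8.81 and 7.34, or 0.58 (SE 0.18, limma adjusted p = 0.668) for the unpurified new buffer against the old. ENSG00000255476 had 7.39 and 8.65, 9.12 and 7.54, and 5.06 and 5.41, or −0.64 (SE 0.18, limma adjusted p = 1.00) for the unpurified against the purified new buffer.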

How the data were processed

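Peak lists of fixed GM12878 cells from 6 bulk ATAC-seq libraries were used, 2 replicates for each of 3 reverse crosslinking protocols, grouped by their labels. The members and the gene lists were chosen with earlier results of these data known.

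The authors trimmed and aligned reads with Bowtie2 2.1.0 (hg19), removed low-quality, duplicate (Picard 1.79) and mitochondrial reads, called narrow peaks with MACS2 and removed blacklisted ones. For MACS2 the version is not given in the sources used here. Per the methods, samples of a condition were merged before calling, but there is 1 list per library. The deposited score is −log10 q times 10, the deposited fold enrichment is a ratio of summit to local background, and the deposited −log10 p and −log10 q are those of the summit. Read totals are unknown, and precision is set by the reads at a summit. MACS2 computes the fold enrichment with 1 added to both terms and the p from a Poisson law, which gave the pileup back.

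Peaks were merged at a gap of 0 bp and classed by GENCODE version 44 starts (lifted to GRCh37, the same build as hg19). The DNA came from the GRCh37 reference, and near-identical copies were sought with minimap2 2.31 (identity of at least 95% over at least 90% of the 300 bp). Protocols were compared by exact permutation tests over libraries and by limma 3.58.1 in R 4.3.3 on log2 fold enrichment, adjusted by the Benjamini-Hochberg method. The named genes were up to 8 per list by mean −log10 q, the 10 strongest promoters called in all 6 libraries, the clearest protocol-specific promoter of each contrast and the smallest limma p of each contrast. Other listed genes are named by the number of libraries only. TUG1 and TINCR are not lncRNAs in this annotation. One marker gene and one sequence are not reported here. Merging and overlap were checked against bedtools 2.31.1 and limma was tested on simulated data, with the recovery given above. Alternatives were other peak thresholds, windows, distances, starts, summit rules, scalings, equal peak numbers, leaving out each replicate and a replicate block. Starts of all transcripts of coding genes and leaving out promoters with copies were added after seeing the data. Scripts ran in Python 3.11.15 with pandas 2.3.3, NumPy 2.4.6, pysam 0.24.0 and SciPy 1.17.1.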

Additional observations from a re-analysis of the deposited data

How the results depend on the processing

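Of 264 values recomputed for 24 results, 217 kept their direction and their side of the threshold or stayed within the allowed range. Some of them could not do otherwise, so the count does not measure robustness. The exact tests between protocols cannot pass the threshold with 2 libraries a group, so only their direction could turn. Leaving out a library of the third protocol leaves the difference between the other 2 as it was. The share of lncRNA starts with a region was 8.70% for peaks with −log10 q of at least 5, 11.3% with 1 kb windows, 8.29% with 250 bp windows and 14.3% for the starts of all lncRNA transcripts. The share of lncRNA promoters called in all 6 libraries was 45.4% with 1 kb and 51.7% with 250 bp windows. With 1 kb windows 28 instead of 13 lncRNA promoters were in both old-buffer libraries and in neither unpurified one. Widening the window takes in more regions by construction. With an equal number of peaks per library, the differences in recovery between protocols were 4.68, 4.72 and 0.049 points instead of 1.98, 4.71 and 2.73.

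Leaving out 1 library at a time turned the difference in recovery between the purified new buffer and the old buffer (range −3.65 to 7.61 points, negative without purified new-buffer replicate 1) and that between the 2 new-buffer protocols (−2.90 to 8.36, negative without purified new-buffer replicate 2). It also turned the difference in share of peaks between the new-buffer protocols (−0.133 to 0.0806 points, positive at 0.0806 without purified replicate 2 and at 0.0168 without unpurified replicate 1). The difference in share of peaks stayed above 0 against the old buffer (0.116 to 0.329 with purification and 0.138 to 0.256 without), as did recovery without purification (3.52 to 5.90). In these comparisons every new-buffer library lay above both old-buffer ones, so leaving out 1 library could not turn the sign. The differences to other distal regions were 0.16 to 0.17 in log2 fold enrichment, 96.4 to 104 bp and 12.4 to 12.7 points, and to coding promoters −0.13 to −0.11, −119 to −110.2 bp and −6.52 to −5.75 points. Their adjusted p was then 0.09375 or 0.125, because 5 libraries allow no exact p under 0.0625 and 4 none under 0.125. With both libraries of each protocol kept, limma called 0 lncRNA promoters under all of its alternatives. Over all regions these alternatives called none, except among 22526 regions called in at least 4 libraries. There 1 region was lower in the unpurified libraries than in the old-buffer ones (limma adjusted p = 0.042). Where 1 library of a protocol is left out, limma takes the other to vary like the rest.

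In fold enrichment the replicate numbers did not pair the libraries. Deviations of libraries with the same number correlated at 0.013, 0.0149 and −0.0008 over the 20064 regions called in all 6 libraries. These correlations do not cover peak number or calls. Replicate 1 listed more peaks than replicate 2 with the old buffer (37654 and 34826), the purified new buffer (38023 and 30136) and the unpurified one (36252 and 34438). In each protocol it also called more lncRNA promoters and had a lower share of peaks in them. Whether the number marks a shared effect on these measures was not tested. With the replicate block, the differences in share of peaks were 0.223, 0.197 and −0.026 points and in recovery 1.98, 4.71 and 2.73 points, with exact p of 0.5 or 1, and limma called 0 lncRNA promoters in each contrast.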

Other observations

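A gene record starts at its outermost transcript, so some lncRNAs with an accessible internal start are not among the lncRNA promoters. Of 50 listed microRNA hosts without a region at the gene start, 8 had a region within 500 bp of the start of a shorter transcript, and 4 of these had one called in all 6 libraries. MIR29B2CHG, host of miR-29 members, had a region in all 6 libraries at a transcript start 9945 bp from its gene start, and MIR4435-2HG at one 314259 bp away. Among snoRNA hosts this held for 3 of 6, with a region in all 6 libraries at 2122 bp from the gene start for SNHG12 and at 807 bp for SNHG6, and one in 2 libraries for SNHG14. DLEU2, which carries miR-15a and miR-16 family members, had one in all 6 libraries at a start 128560 bp away that overlaps a coding promoter. None of the 10 lncRNAs of other lineages without a region at the gene start had one at any transcript start. These regions stand in no comparison of lncRNA promoters, and the genes were named after their values were seen.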
